A study of Homo sapiens with 9 samples.

Results

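Collagens are triple helices of 3 alpha chains, and each chain has a gene of its own. Human gene symbols name the collagen type by the number after COL and the chain by the number after A. Every array probe whose symbol has this form was taken, which gave 73 probes for 43 genes, of 47322 probes and 20054 symbols on the array.

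RNA of SaOS2, an established human osteosarcoma line, was hybridised to 9 bead arrays with a single dye. The cells carried a doxycycline-inducible antisense RNA against the tumour suppressor APC. The recovery group had 1 µg/ml doxycycline for 3 days and then 3 days of growth medium without it. The doxycycline group had the same drug for 3 days and was harvested at once. The control group was untreated. Each group had 3 arrays. All cells were cultured with G418 and hygromycin, and no group with the drug but without the antisense construct was analysed here, so drug and antisense RNA cannot be told apart. The sources used here do not give the harvest time of the controls, whether the line is 1 clone or whether replicates were separate cultures. The p-values therefore rest on a spread between arrays that may be technical.

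Fibrillar collagens (types I, II, III, V, XI, XXIV and XXVII) build the cross-banded fibrils of bone, skin and cartilage. Type I, the main protein of bone matrix, joins COL1A1 and COL1A2 chains, and type V helps to start and size the type I fibrils. FACIT collagens (fibril-associated collagens with interrupted triple helices) sit on fibril surfaces, network-forming collagens make sheets such as the basement membrane, and type VI makes beaded microfilaments around cells. Multiplexins are basement membrane collagens whose ends can be cut off as endostatin-like fragments, and transmembrane collagens stay anchored in the cell surface. In bone, osteoblasts are the main source of type I collagen, while types II, IX and X are best known from cartilage.

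SaOS2 identity was read from marker genes. Of 7 osteoblast markers with a probe, RUNX2, SP7, ALPL, IBSP and PTH1R were detected on all 9 arrays, BGLAP on 1 and SPP1 on 0. Among the cartilage markers SOX9 was detected on all 9 arrays, MATN3 on 2, and ACAN, CHAD and COL2A1 on none. The endothelial genes PECAM1, CDH5 and TEK, the leukocyte genes PTPRC and CD3E and the epithelial genes KRT14 and CDH1 were detected on 0 arrays, while VWF, CD14 and EPCAM were detected on 9. None of the detected markers was called in any comparison. The summed signal of the endothelial list, led by VWF, was 107 to 157 in recovery, 158 to 274 in doxycycline and 77.5 to 190 in control. That of the epithelial list, led by EPCAM, was 916 to 1400 in recovery, 1450 to 2262 in doxycycline and 1258 to 2336 in control. Osteoblast markers summed to 24969 to 26692 in recovery, 28000 to 29176 in doxycycline and 27049 to 30130 in control. The cartilage list, led by SOX9, summed to 380 to 514 in recovery, 431 to 567 in doxycycline and 359 to 745 in control, and the leukocyte list, led by CD14, to 41.8 to 82.6 in recovery, 44.7 to 91.6 in doxycycline and 33.4 to 62.8 in control. These sums use deposited signals, which were not normalized between arrays. The median signal of an array ran from 10.3 on recovery replicate 3 to 21.5 on control replicate 1, so the sums also carry differences in array scale. The part of these lists in the collagen values was not tested. Between 20141 and 21317 probes were detected per array. For APC itself, which has 1 probe, the log2 difference was 0.13 ± 0.16 in doxycycline against control (limma adjusted p = 0.65) and 0.12 ± 0.16 in recovery against control (adjusted p = 0.68), neither called, so the APC probe gave no check of the labels. In RNA from whole cultures, fewer cells of a kind and less RNA per cell cannot be told apart.

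A chain counted as detected when its deposited detection p-value was under 0.05 on 3 or more arrays. By that rule 28 of 73 probes, for 19 of 43 genes, were detected, and 22 of them, for 16 genes, were detected on all 9 arrays. Of the other 45 probes, 38 were detected on 0 arrays, 5 on 1 and 2 on 2, and their deposited signals, which are background-subtracted intensities, lay between -24.4 and 34.0. These 45 probes have no measured change below. A dim probe can also be a poor probe, so a probe that was not detected does not show that its gene is silent.

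Among the fibrillar chains, 12 of 18 probes for 8 of 11 genes were detected. COL5A2 had signals up to 20939, and COL5A1, COL1A1 and both COL1A2 probes (ILMN_1785272 and ILMN_2104356) had signals of 6494 or more on every array. COL11A1 (ILMN_1789507 and ILMN_2392803), COL24A1 and COL11A2 (ILMN_2311456) were detected on all 9 arrays. COL3A1 was detected on 8 arrays, at signals from 18.1 to 49.3. Probe ILMN_1748166 of COL11A2 was detected on 9 arrays and its remaining probe, ILMN_1721178, on 6, both at signals up to 48.6. The highest signals were 11.4 and 4.69 for the 2 probes of COL2A1, the cartilage fibril chain, 6.03 for COL5A3, 16.4 for COL27A1, and 23.4 and -5.82 for the 2 further COL11A1 probes, all of which were detected on 0 arrays.

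Network-forming chains were seen less widely, with 5 of 15 probes for 3 of 9 genes. COL8A1 was detected on 9 arrays by all 3 of its probes, and COL8A2 by 1 of its 2 (ILMN_1674050), the other having a highest signal of 5.66. Of the type IV basement membrane chains, COL4A2 was the one detected, on 4 arrays and with signals from -1.79 to 34.2. COL4A1, which pairs with COL4A2 in the common type IV network, had a highest signal of 4.83 and was detected on 0 arrays. The highest signals of the remaining type IV probes were -3.59 for COL4A3, -7.61 for COL4A4, 6.13 and -7.27 for COL4A5, and 0.979, 1.85 and -0.523 for COL4A6. COL10A1, the chain of hypertrophic cartilage, reached 2.2.

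Of the type VI microfilament chains, COL6A1 by its single probe and COL6A2 by all 3 of its probes were detected. COL6A3, which completes the classical type VI molecule, was not: its 2 probes reached 34.0 and 5.59, the first of them detected on 1 array. The 5 COL6A5 probes reached 29.1, 10.9, -6.25, 31.7 and -0.732, with 2 of them detected on 2 arrays each, and the 2 COL6A6 probes reached -3.07 and -0.105. In the FACIT group, COL9A2, COL16A1 and COL12A1 (ILMN_1733756) were detected on all 9 arrays, the second COL12A1 probe (ILMN_1741695) on 8, and COL14A1 on 4, at signals up to 36.9. COL9A2 stood without its partners: the 4 probes of COL9A1 reached 14.9, 11.2, 9.9 and 25.0, the last detected on 1 array, and COL9A3 reached 11.4 on 0 arrays. The other FACIT probes reached -0.529 and 6.12 for COL19A1, 28.3 for COL20A1 (1 array), 16.8 for COL21A1 and -2.12 for COL22A1.

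No transmembrane collagen was detected among 5 probes: COL13A1 reached 17.9, COL23A1 22.8, and the 3 COL25A1 probes 18.7, -1.77 and 3.55, with COL23A1 and the first COL25A1 probe each detected on 1 array. COL17A1 was not analysed here. Of the multiplexins, 1 of the 2 COL18A1 probes (ILMN_1806733) was detected on all arrays, while the other (ILMN_1701937) reached 21.6 and COL15A1 reached -8.73, both on 0 arrays. COL7A1, the anchoring-fibril collagen of skin, was detected on all 9 arrays, and its companions among the remaining types reached -6.66 for COL26A1 and 0.449 and 5.95 for COL28A1.

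**Figure D1:**
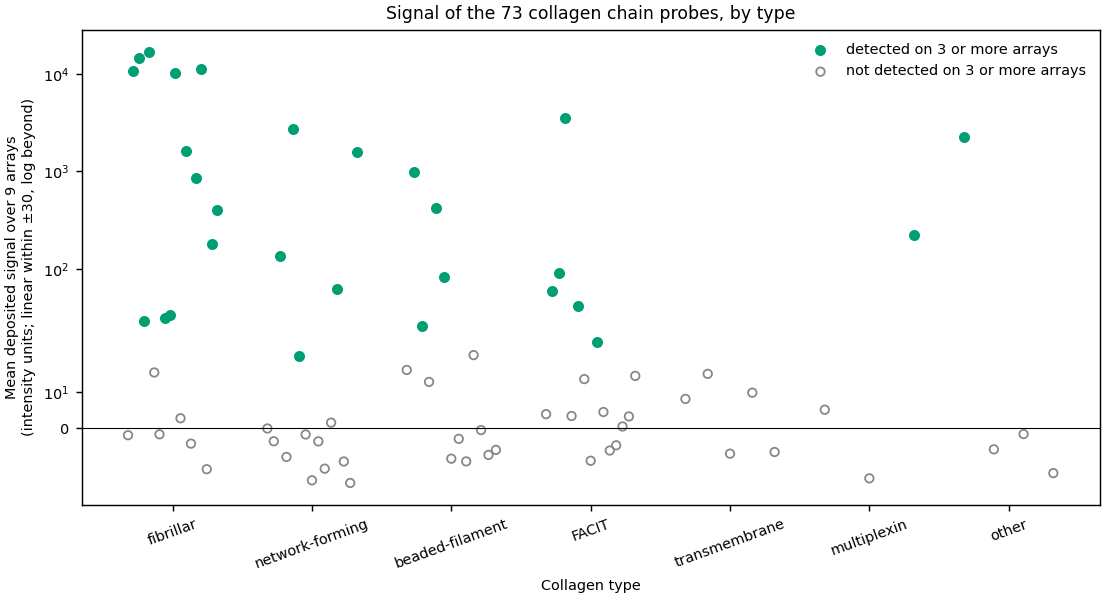
Mean deposited signal over 9 arrays (vertical axis, intensity units, linear within ±30 and logarithmic beyond) of each of the 73 collagen probes, by collagen type (horizontal axis). Filled points are the 28 probes detected on 3 or more arrays, none of them transmembrane, and open points are the other 45, whose signals do not exceed 34.0 on any array.

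Values from here on are normalized log2 levels, and differences between groups are log2 differences ± standard error from limma, called at a Benjamini-Hochberg adjusted p under 0.05 over all 22039 detected probes. The 3 comparisons share arrays, so they are not independent of each other. Among all detected probes 1.02% were called higher and 0.386% lower in doxycycline against control, 7.49% and 7.59% in recovery against control, and 6.34% and 6.33% in recovery against doxycycline. Within the doxycycline group the arrays did not agree on the collagens. On doxycycline replicate 2, 25 of 28 collagen probes lay above their group mean, with a median deviation of 0.44, against 3 of 28 and a median deviation of -0.37 on doxycycline replicate 1, and 6 of 28 and -0.10 on doxycycline replicate 3. In recovery the array medians lay between -0.07 and 0.06, and in control between -0.01 and 0.03. Over all detected probes no array's median deviation left the range from -0.04 to 0.02. The arrays were normalized to a common distribution of levels, which holds this median near 0. The SD of the deviations of all detected probes was 0.31 on doxycycline replicate 2 and 0.26 on doxycycline replicate 1. On the other arrays it was 0.15 to 0.16. The median SD of a collagen probe was 0.18 in recovery, 0.40 in doxycycline and 0.15 in control, where that of all detected probes was 0.13 in recovery, 0.23 in doxycycline and 0.13 in control. Collagen calls are therefore given with all arrays and without doxycycline replicate 2, and the value without doxycycline replicate 1 is added where leaving out that array changes a call.

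**Figure D2:**
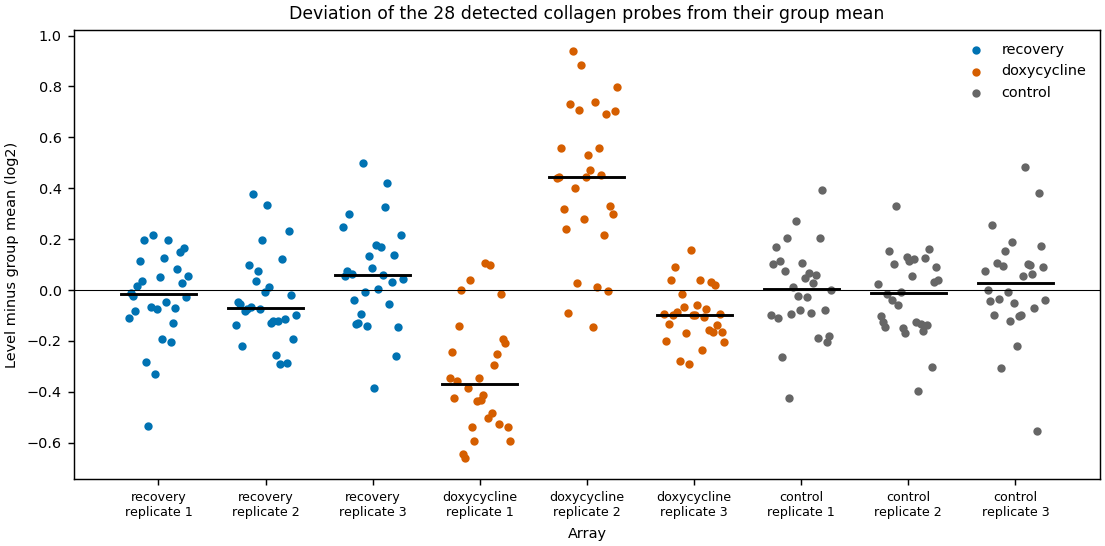
Log2 level minus the mean of its group (vertical axis) for the 28 detected collagen probes on each of the 9 arrays (horizontal axis), with a bar at the median. The points of doxycycline replicate 2 lie mostly above 0 (median 0.44) and those of doxycycline replicate 1 mostly below (median -0.37), while the recovery and control medians lie between -0.07 and 0.06.

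The largest falls in recovery against doxycycline were in 4 genes of different types: COL6A1 and COL6A2 of type VI, COL18A1, whose C-terminal end is endostatin, and COL12A1, a FACIT chain of dense connective tissue. On 5 of their probes the recovery arrays lay below the doxycycline arrays with no overlap, by log2 differences between -1.65 and -1.20, and all 5 were called with all arrays and without doxycycline replicate 2. In the comparison of doxycycline with control these 5 probes had differences between 0.78 and 1.18, of which 1, for COL6A2, was called. COL9A2 had its highest levels in recovery and its lowest in control.

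COL6A1, COL6A2 and COL18A1 lie on chromosome 21. In the RefSeq annotation no protein-coding gene separates COL6A1 from COL6A2, and 2, SLC19A1 and PCBP3, lie between COL18A1 and COL6A1. COL9A2 is on chromosome 1. The 250 bases before their annotated starts are shown for COL6A2, COL9A2 and COL18A1, which gave the largest called collagen difference in doxycycline against control, recovery against control and recovery against doxycycline, in that order. They come from RefSeq on GRCh38.p14 and are written 5′ to 3′ on the gene's strand, with capitals for a TATA box (TATAAA) or a GC box (GGGCGG), each on either strand. Neighbouring GC boxes can share a base. COL18A1 has 2 annotated starts with a window, and COL6A1 is named only.
COL6A2, chr21:46097862-46098111, plus strand: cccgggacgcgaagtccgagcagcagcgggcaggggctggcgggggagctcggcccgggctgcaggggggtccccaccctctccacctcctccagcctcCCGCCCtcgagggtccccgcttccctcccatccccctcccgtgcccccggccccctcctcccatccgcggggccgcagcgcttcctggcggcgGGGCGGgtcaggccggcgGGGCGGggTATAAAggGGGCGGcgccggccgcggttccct
COL18A1, first start, chr21:45404915-45405164, plus strand: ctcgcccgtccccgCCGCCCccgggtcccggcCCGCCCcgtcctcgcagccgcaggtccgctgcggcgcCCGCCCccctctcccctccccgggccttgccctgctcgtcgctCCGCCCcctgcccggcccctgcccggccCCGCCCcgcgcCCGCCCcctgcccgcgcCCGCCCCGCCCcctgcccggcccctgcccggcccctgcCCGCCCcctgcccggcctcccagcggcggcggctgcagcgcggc
COL18A1, second start, chr21:45455272-45455521, plus strand: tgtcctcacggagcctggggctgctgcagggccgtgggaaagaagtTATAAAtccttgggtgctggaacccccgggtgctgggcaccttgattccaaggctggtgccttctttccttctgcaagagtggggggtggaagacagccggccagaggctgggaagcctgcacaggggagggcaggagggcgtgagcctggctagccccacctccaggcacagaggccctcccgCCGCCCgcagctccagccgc
COL9A2, chr1:40317287-40317536, minus strand: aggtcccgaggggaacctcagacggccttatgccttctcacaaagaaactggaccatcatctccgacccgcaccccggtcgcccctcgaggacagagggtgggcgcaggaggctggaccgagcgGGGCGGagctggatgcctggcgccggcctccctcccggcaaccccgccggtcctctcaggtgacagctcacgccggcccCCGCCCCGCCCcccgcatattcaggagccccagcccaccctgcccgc

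The COL6A2 window held 1 TATA box and 4 GC boxes, the first COL18A1 window 0 and 9, the second 1 and 1, and the COL9A2 window 0 and 3. Windows were found for 12 of the 19 detected genes, 18 in all, since a gene can have several starts, and some overlap. Of these 18, 15 held a GC box and 3 a TATA box, against 42.6% and 10.7% of 35116 RefSeq windows of that length. The median GC content was 70.2% for the 18 collagen windows and 58.0% for all windows. A TCF/LEF element (CTTTGAT or CTTTGAA, in 5.94% of all windows), searched on both strands, was in 0 of the 18. These matches describe letters in the windows, and which start SaOS2 cells use was not tested.

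COL6A1 had levels of 9.08, 9.01 and 9.30 in recovery, 10.06, 11.30 and 10.33 in doxycycline, and 9.59, 9.40 and 9.58 in control. All doxycycline arrays were above all control arrays, and all recovery arrays were below both groups. The fall in recovery against doxycycline was -1.43 ± 0.25 (limma adjusted p = 0.00371), a 2.70-fold lower level. Without doxycycline replicate 2 it was -1.07 ± 0.14 (adjusted p = 0.000654). The doxycycline difference from control was 1.03 ± 0.25 (adjusted p = 0.067) with all arrays and 0.67 ± 0.14 (adjusted p = 0.049) without doxycycline replicate 2, so leaving out the array with the highest COL6A1 level made the difference smaller and moved it past the threshold. It was also called without doxycycline replicate 1, at 1.29 ± 0.23 (adjusted p = 0.011). Recovery against control gave -0.40 ± 0.25 (adjusted p = 0.34), and -0.40 ± 0.12 (adjusted p = 0.035) without doxycycline replicate 2.

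COL6A2 was read by 3 probes. On ILMN_1783909 the levels were 7.64, 7.73 and 8.17 in recovery, 8.98, 10.02 and 9.38 in doxycycline, and 8.30, 8.14 and 8.38 in control. Doxycycline stood above both other groups with no overlap, and recovery overlapped control. This was the collagen probe called higher in doxycycline than in control, by 1.18 ± 0.23 (limma adjusted p = 0.034, 2.27-fold, 95% interval 0.67 to 1.69), and by 0.91 ± 0.18 (adjusted p = 0.043) without doxycycline replicate 2. That call was lost when any single control array, doxycycline replicate 3, recovery replicate 1 or recovery replicate 2 was left out, with an adjusted p of up to 0.15. Recovery was lower than doxycycline by -1.61 ± 0.23 (adjusted p = 0.00102, 3.05-fold lower), and by -1.33 ± 0.18 (adjusted p = 0.00088) without doxycycline replicate 2.

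ILMN_1809928 gave 5.84, 5.68 and 6.39 in recovery, 6.88, 7.63 and 7.02 in doxycycline, and 6.35, 6.13 and 6.39 in control for COL6A2, in the same order as ILMN_1783909. Its fall in recovery against doxycycline was -1.20 ± 0.22 (limma adjusted p = 0.00429), and -0.98 ± 0.19 (adjusted p = 0.00672) without doxycycline replicate 2. Its difference between doxycycline and control, 0.88 ± 0.22 (adjusted p = 0.069), was not called with all arrays or without doxycycline replicate 2 (0.66 ± 0.19, adjusted p = 0.14). Without doxycycline replicate 1 it was called, at 1.03 ± 0.23 (adjusted p = 0.017). The dimmest COL6A2 probe, ILMN_1765017, was detected on 7 arrays at signals up to 41.9 and went another way, with levels of 5.82, 5.37 and 5.68 in recovery, 5.50, 5.41 and 5.29 in doxycycline, and 5.29, 4.98 and 5.86 in control. Its groups overlapped in all 3 comparisons and none of its differences, 0.02 for doxycycline against control, 0.25 for recovery against control and 0.23 for recovery against doxycycline, was called.

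COL18A1 had levels of 6.86, 6.70 and 7.11 in recovery, 8.003, 9.24 and 8.37 in doxycycline, and 7.42, 7.69 and 7.69 in control. The 3 groups did not overlap, with doxycycline above control and recovery below it. The fall in recovery against doxycycline, -1.65 ± 0.26 (limma adjusted p = 0.00162, 3.14-fold lower, 95% interval -2.21 to -1.09), was -1.30 ± 0.16 (adjusted p = 0.000551) without doxycycline replicate 2. Doxycycline differed from control by 0.94 ± 0.26 (adjusted p = 0.084) and by 0.59 ± 0.16 (adjusted p = 0.12) without that array, neither called. Leaving out doxycycline replicate 1 made it a call, at 1.21 ± 0.23 (adjusted p = 0.012). Recovery differed from control by -0.71 ± 0.26 (adjusted p = 0.085), a difference called without doxycycline replicate 2 (-0.71 ± 0.15, adjusted p = 0.00493) and without doxycycline replicate 1 (-0.71, adjusted p = 0.032).

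COL12A1 on ILMN_1733756 followed the same order, with 11.10, 10.90 and 11.05 in recovery, 11.79, 13.01 and 12.15 in doxycycline, and 11.74, 11.40 and 11.47 in control. Recovery lay below both other groups and the lowest doxycycline array was just above the highest control array. Recovery was lower than doxycycline by -1.30 ± 0.25 (limma adjusted p = 0.00556, 2.46-fold lower), and by -0.95 ± 0.15 (adjusted p = 0.00221) without doxycycline replicate 2. The other COL12A1 probe, ILMN_1741695, at signals from 20.8 to 90.3, had overlapping groups and differences between -0.12 and -0.0046. The 0.78 ± 0.25 of ILMN_1733756 between doxycycline and control (adjusted p = 0.12) was not called. It was 0.43 ± 0.15 (adjusted p = 0.20) without doxycycline replicate 2, and 1.04 ± 0.22 (adjusted p = 0.015), called higher, without doxycycline replicate 1. Its difference between recovery and control was -0.52 ± 0.25 (adjusted p = 0.19), and -0.52 ± 0.13 (adjusted p = 0.016) without doxycycline replicate 2.

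COL9A2, a chain of the type IX collagen that decorates cartilage fibrils, had 7.17, 7.36 and 7.18 in recovery, 6.44, 6.90 and 6.72 in doxycycline, and 5.85, 6.16 and 6.10 in control. The groups did not overlap, and all recovery arrays were the highest. Recovery was higher than control by 1.20 ± 0.15 (limma adjusted p = 0.000245, 2.30-fold, 95% interval 0.87 to 1.53), and by 1.20 ± 0.13 (adjusted p = 7.52e-05) without doxycycline replicate 2. Doxycycline differed from control by 0.65 ± 0.15 (adjusted p = 0.060), and by 0.54 ± 0.14 (adjusted p = 0.105) without that array. It was called higher without doxycycline replicate 1, at 0.77 ± 0.15 (adjusted p = 0.012). Recovery exceeded doxycycline by 0.55 ± 0.15 (adjusted p = 0.033). This was 0.66 ± 0.14 (adjusted p = 0.010) without doxycycline replicate 2 and 0.43 (adjusted p = 0.063, not called) without doxycycline replicate 1. The deposited COL9A2 signals ran from 47.9 to 149. Over the 22 alternative fits described below, its recovery difference from control ranged from 0.89 to 1.44 and was always called.

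**Figure D3:**
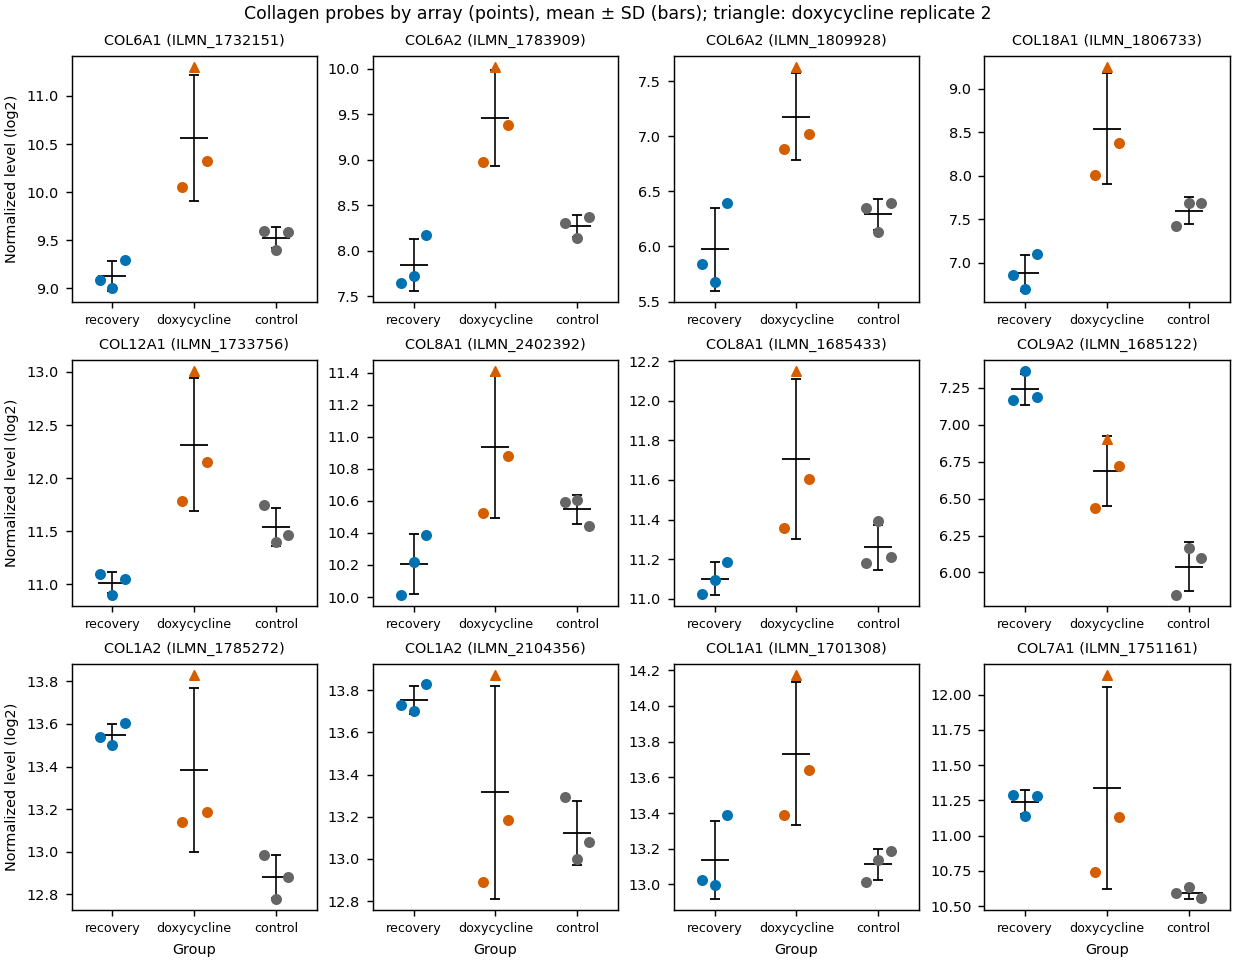
Normalized log2 level (vertical axes, not starting at 0) on each array for the probes called in any comparison with or without doxycycline replicate 2, and for COL1A1, in recovery, doxycycline and control (horizontal axes). Bars are the mean ± SD of 3 arrays, and the triangle is doxycycline replicate 2, the highest of its group in all 12 panels, for instance at 11.30 for COL6A1.

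COL1A2, the second chain of type I collagen, was read by 2 bright probes. On ILMN_1785272 it had levels of 13.54, 13.50 and 13.61 in recovery, 13.14, 13.83 and 13.19 in doxycycline, and 12.98, 12.78 and 12.88 in control, so that recovery lay above control with no overlap. The rise against control was 0.67 ± 0.17 (limma adjusted p = 0.024, 1.59-fold), and 0.66 ± 0.10 (adjusted p = 0.000884) without doxycycline replicate 2. It was called in 3 of the 9 fits that left out 1 array. ILMN_2104356 gave 13.73, 13.70 and 13.83 in recovery, 12.89, 13.87 and 13.18 in doxycycline, and 13.29, 13.0005 and 13.08 in control. Its recovery difference from control was 0.63 ± 0.21 (adjusted p = 0.065), 0.63 ± 0.12 (adjusted p = 0.00347) without doxycycline replicate 2, and 0.63 ± 0.17 (adjusted p = 0.024) without doxycycline replicate 1. For doxycycline against control ILMN_1785272 gave 0.50 ± 0.17, and 0.28 without doxycycline replicate 2, neither called, and was called higher without doxycycline replicate 1 (0.62, adjusted p = 0.036). ILMN_2104356 gave 0.19 ± 0.21 for doxycycline against control, -0.09 without doxycycline replicate 2 and 0.40 without doxycycline replicate 1, not called in any of these. Recovery against doxycycline on the 2 probes, in the same order, gave 0.16 ± 0.17 and 0.44 ± 0.21 with all arrays, neither called. Without doxycycline replicate 2 both were called, at 0.38 ± 0.11 (adjusted p = 0.043) and 0.71 ± 0.13 (adjusted p = 0.00574).

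COL1A1 had 13.03, 12.999 and 13.39 in recovery, 13.39, 14.17 and 13.64 in doxycycline, and 13.01, 13.14 and 13.19 in control, with recovery overlapping control. Its recovery difference from control was 0.02 ± 0.19 (limma adjusted p = 0.95, 95% interval -0.39 to 0.44), and that of doxycycline from control 0.62 ± 0.19 (adjusted p = 0.11). Recovery against doxycycline gave -0.60 ± 0.19 (adjusted p = 0.062). Doxycycline lay above both other groups without overlap. Without doxycycline replicate 2, doxycycline against control gave 0.40 (adjusted p = 0.22) and recovery against doxycycline -0.37 (adjusted p = 0.11), neither called. Within each array the level of COL1A2 on ILMN_2104356 minus that of COL1A1 was taken, and its change between groups was tested. This difference was higher by 0.60 in recovery than in control, lower in doxycycline than in control (-0.43), and higher by 1.03 in recovery than in doxycycline, with no overlap in any of the 3. An exact two-sided permutation test of 3 against 3 arrays cannot give less than 0.1, which is what each gave. The adjusted p was 0.3 over the 15 such comparisons made for 5 chain pairs. No result of this test could fall under 0.05, so it could not decide whether the chains changed differently. With COL1A2 on ILMN_1785272, which was not among the 15, the change was 0.64 for recovery against control and 0.76 for recovery against doxycycline, both without overlap, and -0.12 for doxycycline against control, where the groups overlapped.

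The same measure for the type VI pair, COL6A2 on ILMN_1783909 minus COL6A1, overlapped between groups in all 3 comparisons, with values of 0.15 for doxycycline against control, -0.03 for recovery against control and -0.18 for recovery against doxycycline. COL5A2 minus COL5A1 and COL8A2 minus COL8A1 overlapped as well. COL11A2 on ILMN_2311456 minus COL11A1 on ILMN_1789507 was higher by 0.34 in doxycycline and by 0.29 in recovery than in control, without overlap and again at the smallest p of 0.1 (exact permutation test).

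COL8A1, a short-chain collagen of endothelial and corneal basement layers, had 2 probes called lower in recovery than in doxycycline. ILMN_2402392 had 10.02, 10.22 and 10.39 in recovery, 10.52, 11.41 and 10.88 in doxycycline, and 10.60, 10.61 and 10.45 in control, and ILMN_1685433 had 11.03, 11.09 and 11.19 in recovery, 11.36, 12.15 and 11.61 in doxycycline, and 11.18, 11.39 and 11.21 in control. In both, recovery lay below doxycycline with no overlap and doxycycline overlapped control. The falls were -0.73 ± 0.20 (limma adjusted p = 0.032) and -0.60 ± 0.18 (adjusted p = 0.0495), and without doxycycline replicate 2 they were -0.50 ± 0.15 (adjusted p = 0.046) and -0.38 ± 0.13 (adjusted p = 0.067). The remaining COL8A1 probe, ILMN_2246563, with signals from 31.2 to 94.5, gave 0.03 ± 0.24 for the same comparison, and 0.30 without doxycycline replicate 2. Against control, recovery gave -0.34 ± 0.20 on ILMN_2402392, without overlap. It gave -0.16 ± 0.18 on ILMN_1685433 and 0.24 ± 0.24 on ILMN_2246563, both with overlap, and none was called. For doxycycline against control ILMN_2402392 gave 0.39 and ILMN_1685433 0.44, and 0.15 and 0.22 without doxycycline replicate 2, none called, while without doxycycline replicate 1 both were called higher, at 0.59 (adjusted p = 0.041) and 0.62 (adjusted p = 0.032).

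COL7A1 was called in no comparison with all arrays. Its levels were 11.29, 11.14 and 11.28 in recovery, 10.75, 12.14 and 11.13 in doxycycline, and 10.59, 10.63 and 10.55 in control, so that both other groups lay above control without overlap. Recovery differed from control by 0.64 ± 0.27 (limma adjusted p = 0.13), by 0.64 ± 0.12 (adjusted p = 0.00297) without doxycycline replicate 2, and by 0.64 ± 0.21 (adjusted p = 0.04998) without doxycycline replicate 1. Doxycycline differed from control by 0.75 ± 0.27 (adjusted p = 0.14), by 0.35 ± 0.13 (adjusted p = 0.24) without doxycycline replicate 2, and by 1.04 ± 0.23 (adjusted p = 0.018), called higher, without doxycycline replicate 1. Recovery against doxycycline changed sign with the arrays used, at -0.10 ± 0.27 with all of them and 0.30 ± 0.13 without doxycycline replicate 2, neither called. The SD of its doxycycline arrays was 0.72, against 0.08 in recovery and 0.04 in control.

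Of the 28 detected probes 17 were called in no comparison, with all arrays or without doxycycline replicate 2. Among these are COL1A1 and the dim COL6A2, COL8A1 and COL12A1 probes. The type V chains, which nucleate type I fibrils, gave COL5A1 0.33 ± 0.14 and COL5A2 0.40 ± 0.14 for doxycycline against control, both without overlap, and 0.13 and 0.30 for recovery against control. Their doxycycline differences from control were 0.21 and 0.43 without doxycycline replicate 2. COL11A1, the type XI chain, gave 0.31 and 0.29 on its 2 probes for doxycycline against control, where doxycycline replicate 2 alone stood high, at 11.61 and 9.81 against at most 10.79 and 8.79 on any other array. Without that array they were -0.06 and -0.18. COL24A1, a fibrillar chain known from developing bone in mice, gave 0.53 ± 0.30, and 0.09 without doxycycline replicate 2, and COL11A2 gave 0.65 ± 0.24 on its bright probe ILMN_2311456, and 0.29 without that array, and 0.15 and 0.08 on its dim ones. The COL8A2 difference was 0.13 ± 0.13 and that of COL16A1 0.12 ± 0.16. Near background, COL3A1 gave 0.03, COL14A1 0.12 and COL4A2 -0.20. Without doxycycline replicate 2 the differences were 0.20 for COL8A2, -0.03 for COL16A1, -0.12 for COL3A1, -0.05 for COL14A1 and -0.34 for COL4A2. Against control, recovery was higher without overlap in COL5A2 (0.30 ± 0.14) and COL16A1 (0.35 ± 0.16). It was lower without overlap in COL11A1 on ILMN_1789507 (-0.29 ± 0.26). COL8A2 gave -0.08 ± 0.13 there, with overlap. For recovery against doxycycline the 17 ranged from -0.65 for COL11A2 (ILMN_2311456) to 0.30 for COL11A2 (ILMN_1748166). Leaving out doxycycline replicate 1 in place of replicate 2 made calls among them: in doxycycline against control COL1A1 (0.79, limma adjusted p = 0.019) and COL11A2 on ILMN_2311456 (0.91, adjusted p = 0.019) were higher, and in recovery against doxycycline COL1A1 (-0.77), COL11A1 on ILMN_1789507 (-0.92) and COL11A2 on ILMN_2311456 (-0.91) were lower.

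Counted over all types, doxycycline against control gave 1 of 28 collagen probes higher and 0 lower, where 1.02% of all detected probes were called higher and 0.386% lower. By unadjusted p under 0.05 the count was 13 of 28, beside 22.4% of all detected probes. Differences were positive for 26 of 28, beside 48.4% of all detected probes, with a median of 0.36 where the median of all detected probes was -0.01. Groups did not overlap for 12 probes higher in doxycycline and 0 lower, beside 12.6% and 12.9% of all detected probes. Leaving out doxycycline replicate 2 gave 2 of 28 higher and 0 lower (0.983% and 0.235% of all tested probes), with 18 of 28 positive and a median of 0.18. Without doxycycline replicate 1, the lowest array of the group on these probes, 12 of 28 were called higher and 0 lower (9.10% and 8.94% of all tested probes) and the median was 0.61. By type the medians were 0.96 for beaded-filament, 0.32 for fibrillar, 0.20 for network-forming and 0.12 for FACIT probes. Without doxycycline replicate 2 they were 0.66, 0.08, 0.15 and -0.0015, in that order of types.

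Recovery against control gave 2 of 28 higher, COL9A2 and COL1A2 (ILMN_1785272), and 0 lower, beside 7.49% and 7.59% of all detected probes. The collagen median was 0.01 and that of all detected probes -0.03. Groups did not overlap for 6 probes higher and 5 lower, beside 19.9% and 23.1%. With doxycycline replicate 2 left out the counts were 4 higher and 3 lower, beside 12.2% and 13.8% of all tested probes. The higher ones were COL9A2, both COL1A2 probes and COL7A1, and the lower ones COL6A1, COL12A1 and COL18A1. Without doxycycline replicate 1 they were 4 higher and 1 lower, beside 9.20% and 9.94%. The beaded-filament median was -0.36, the fibrillar one 0.08, the network-forming one -0.08 and the FACIT one 0.01.

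Recovery against doxycycline gave 1 of 28 higher, COL9A2, and 7 lower, the probes of COL18A1, COL6A1, COL12A1, COL6A2 and COL8A1 described above, beside 6.34% higher and 6.33% lower among all detected probes. The median was -0.20, and -0.01 over all detected probes. Groups did not overlap for 1 probe higher and 9 lower, beside 15.5% in each direction. When doxycycline replicate 2 was left out the calls were 3 higher and 6 lower (7.63% and 8.05% of all tested probes), with a median of -0.10. Without doxycycline replicate 1 they were 0 higher and 10 lower (10.1% and 10.2%). The beaded-filament median was -1.32, and -1.02 without doxycycline replicate 2. The fibrillar and network-forming medians were -0.21 and -0.20, and -0.08 and -0.28 without it.

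**Figure D4:**
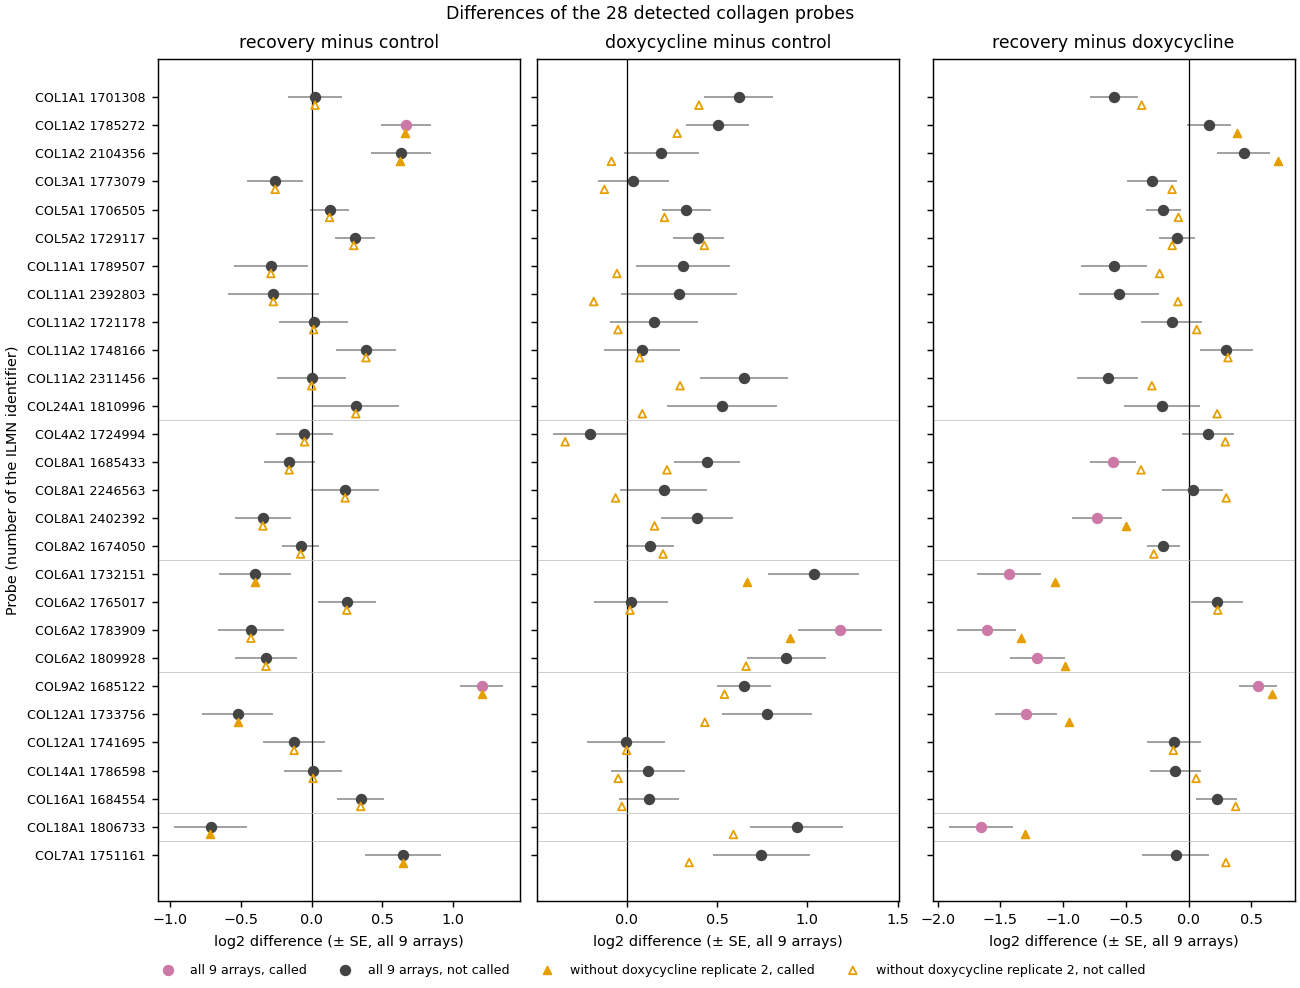
Log2 difference ± standard error (horizontal axes) of the 28 detected collagen probes (rows, grouped by type) in the 3 comparisons. Circles use all 9 arrays, coloured where called, and triangles leave out doxycycline replicate 2, filled where called. In recovery minus doxycycline, 7 circles are called below 0, down to -1.65 for COL18A1, and 1 above, COL9A2 at 0.55.

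The counts were also taken by brightness. For the 17 probes with a mean signal above 100, doxycycline against control was positive for all 17, with a median of 0.50, and for 14 with a median of 0.28 without doxycycline replicate 2. For all 13517 detected probes above the same signal the median was -0.02, and -0.01 without that array. Dim probes that differed from the brighter probes of their gene, in COL6A2, COL12A1, COL8A1 and COL11A2 (ILMN_1748166), had signals of at most 94.5 on every array.

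Genes that modify, export, process, cross-link, bind or degrade collagen were followed in 7 lists, each gene by its brightest detected probe, which measured 60 of 91 listed genes. On these genes too, doxycycline replicate 2 lay above its group mean for 54 of 60 and doxycycline replicate 1 for 5 of 60. In doxycycline against control 4 of the 60 were called higher and 0 lower (1.28% and 0.220% of all 12245 genes). Without doxycycline replicate 2 they were 4 and 0 (0.983% and 0.235% of all tested probes). Without doxycycline replicate 1 they were 37 and 1 (9.10% and 8.94% of all tested probes). In recovery against control 9 were higher and 3 lower (8.76% and 7.68% of genes). The counts were 15 and 4 (12.2% and 13.8% of probes) without doxycycline replicate 2, and 12 and 4 (9.20% and 9.94%) without doxycycline replicate 1. In recovery against doxycycline 4 were higher and 11 lower (6.99% and 7.63% of genes). These became 8 and 9 (7.63% and 8.05% of probes) without doxycycline replicate 2, and 4 and 25 (10.1% and 10.2%) without doxycycline replicate 1.

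The enzymes and chaperones that hydroxylate, glycosylate and fold the chains in the endoplasmic reticulum had a median of 0.51 for doxycycline against control over 16 genes, with 0 called by limma, and 0.32 without doxycycline replicate 2, again with 0 called. Without doxycycline replicate 1, 12 of the 16 were called higher, beside 9.10% of all tested probes. COLGALT1, which puts galactose on hydroxylysine, had 11.54, 11.62 and 11.63 in recovery, 12.08, 12.63 and 12.29 in doxycycline, and 11.77, 11.76 and 11.59 in control. It fell in recovery against doxycycline by -0.74 ± 0.15 (limma adjusted p = 0.0078), and -0.59 ± 0.12 without doxycycline replicate 2 (adjusted p = 0.0081). The prolyl 3-hydroxylase P3H2 fell as well, by -0.86 ± 0.23 (adjusted p = 0.031), and by -0.54 ± 0.14 (adjusted p = 0.024) without that array. These were the 2 of 16 called in that comparison, both lower, where 7.63% of all genes were called lower.

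The export genes, whose products load procollagen into large COPII carriers, gave 3 of 7 called higher in recovery against control and 0 lower. Among all genes 8.76% were called higher and 7.68% lower there. SAR1A, the GTPase that starts the COPII coat, had 11.77, 11.87 and 11.74 in recovery, 10.86, 11.24 and 11.22 in doxycycline, and 10.21, 10.22 and 10.40 in control, with no overlap between the 3 groups. Its rise was 1.52 ± 0.14 for recovery against control, 0.83 ± 0.14 (limma adjusted p = 0.014) for doxycycline against control and 0.69 ± 0.14 (adjusted p = 0.0072) for recovery against doxycycline, and all 3 were called without doxycycline replicate 2. MIA3 (TANGO1), the procollagen cargo receptor at the exit sites, had 8.31, 8.55 and 8.44 in recovery, 7.61, 8.99 and 7.97 in doxycycline, and 6.85, 7.005 and 6.67 in control. Both other groups lay above control, by 1.59 ± 0.27 (adjusted p = 0.0023) in recovery and 1.35 ± 0.27 (adjusted p = 0.040) in doxycycline. Leaving out doxycycline replicate 2 gave 1.597 and 0.95 (adjusted p = 0.014), and recovery was then also called higher than doxycycline, by 0.65 (adjusted p = 0.015), against 0.24, not called, with all arrays. SEC24D, a coat subunit needed for collagen export, rose in recovery against control by 0.63 ± 0.14 (adjusted p = 0.010) and against doxycycline by 0.62 ± 0.14 (adjusted p = 0.013), and differed by 0.01 between doxycycline and control. Without doxycycline replicate 2 the SEC24D differences were 0.63 (adjusted p = 0.0038), 0.56 (adjusted p = 0.020) and 0.07, in that order.

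Beside 7.63% of all genes, 2 of 4 procollagen processing genes were called lower in recovery than in doxycycline. They were PCOLCE2, an enhancer of C-propeptide removal, at -0.81 ± 0.18 (limma adjusted p = 0.011; -0.65, adjusted p = 0.018, without doxycycline replicate 2), and the N-proteinase ADAMTS3 at -0.63 ± 0.18 (adjusted p = 0.043). Without doxycycline replicate 2 ADAMTS3 gave -0.46 (adjusted p = 0.084) and was not called. LOXL1, an oxidase that cross-links matrix fibres, was lower by -1.08 ± 0.19 (adjusted p = 0.0035), and by -0.87 (adjusted p = 0.0034) without doxycycline replicate 2. It was the 1 of 3 measured oxidases called in recovery against doxycycline, where 7.63% of all genes were called lower.

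The largest single difference among these genes was in MMP13, the collagenase of cartilage and bone, which cleaves fibrillar collagen. It had 8.28, 8.52 and 8.40 in recovery, 5.61, 6.35 and 5.96 in doxycycline, and 5.06, 4.80 and 4.86 in control, where it was detected on none of 3 arrays. Against the lowest signal detected on each control array it was at least 8.56-fold higher in recovery (limma adjusted p = 1.09e-07) and at least 1.59-fold higher in doxycycline (adjusted p = 0.014). The membrane-bound MMP16 fell in recovery by -1.16 ± 0.25 against control (adjusted p = 0.0097) and by -1.38 ± 0.25 against doxycycline (adjusted p = 0.0046), while its other detected probe gave -0.28 against control. CTSL, a lysosomal cysteine protease, rose in recovery against control by 0.72 ± 0.18 (adjusted p = 0.018).

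Among 10 measured receptors, the integrin subunit ITGA2, which binds fibrillar collagen, rose against control by 1.33 ± 0.21 in recovery (limma adjusted p = 0.0013) and by 1.10 ± 0.21 in doxycycline (adjusted p = 0.029). DDR2, a receptor tyrosine kinase for fibrillar collagen, rose in recovery against control by 0.78 ± 0.15 (adjusted p = 0.0047). ITGA10, the collagen-binding integrin of chondrocytes, fell in recovery against control by -0.91 ± 0.24 (adjusted p = 0.025) and against doxycycline by -1.48 ± 0.24 (adjusted p = 0.0022). Of 12 collagen-binding matrix proteins, the small proteoglycan DCN and the calcium-binding SPARC rose in recovery against control by 0.88 ± 0.15 (adjusted p = 0.0023) and 0.90 ± 0.17 (adjusted p = 0.0034), and THBS1 fell by -1.06 ± 0.24 (adjusted p = 0.011), and by -1.22 ± 0.24 (adjusted p = 0.0062) against doxycycline. The calls of MMP13, MMP16, ITGA2, ITGA10, DDR2, DCN, SPARC, CTSL and THBS1 named here were also made without doxycycline replicate 2 and without doxycycline replicate 1. Without doxycycline replicate 2 recovery was in addition called higher than doxycycline in ITGA2 (0.51), CTSL (0.42), DCN (0.58) and SPARC (0.67), and LOXL1 was called lower in recovery than in control (-0.57).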

How the data were processed

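Total RNA was labelled with Cy3 and read on single-colour bead arrays, per the labels' protocols. The deposited signal table gives 1 intensity per array for 47322 probes, before any normalization between arrays; 29.2% to 32.5% of the values are below 0, as after a subtraction of background. The sources used here name no software for this step. Beside each intensity the authors deposited a detection p-value, in steps of 1 in 770 per the file headers and values. A second deposited table holds the authors' quantile normalized intensity on the linear scale, used as an alternative. The columns of the signal table bear short codes, and each was matched to the sample-named column of the second table that ranks all probes identically (rank correlation 1 with the assigned column, at most 0.962 with any other). All columns of sample values were assigned.

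Symbols came from the platform annotation, with 1 symbol for 30112 probes, several for 8 and none for 17202. RefSeq held the gene identifier of all 73 collagen probes, under the same symbol. Background correction used nec of limma 3.58.1 (normexp, from detection p-values, offset 16), followed by log2 and quantile normalization. In R 4.3.3, lmFit and eBayes were run over all 9 arrays on the 22039 probes detected at p under 0.05 on 3 or more of them (6 residual degrees of freedom, prior 5.77), with Benjamini-Hochberg adjustment over all of them. The fit was tested on simulated data with independent normal errors and the same spread of a probe in every group. That setting lacks the wider spread of the doxycycline group and deviations shared between probes, so their part in the calls was not tested. Arrays hold no read depth, so their number limits the precision. Where a gene was detected on no array of the dimmer group, a fold is a lower bound against the lowest detected level of each such array. Levels of different probes were not ranked against each other; for chain pairs, the within-array difference of 2 probes was compared between groups. Tables and figures used Python 3.11.15, pandas 2.3.3 and matplotlib 3.10.9.

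The members, the 7 collagen types and the 7 partner lists were chosen with earlier results of these data known. Every collagen probe is given, with full statistics for those called and for COL6A2, COL18A1 and COL9A2. From each partner list up to 3 called genes with the smallest p are named. The sources used here name no slide or chip, so none could be tested as a batch. Alternatives covered offset, background, scaling, filters, the authors' values, genes in place of probes, prior, array weights, replicate block, fits of 2 groups and leaving out each array.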

Additional observations from a re-analysis of the deposited data

How the results depend on the processing

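Offset, background correction, scaling, filter, source of the values, gene-level testing, prior, array weights, block, groups fitted and single arrays were varied. No call made with all arrays reversed its sign in any fit. Differences that were not called did: in doxycycline against control 8 of 28 probes changed sign without doxycycline replicate 2 and 3 without doxycycline replicate 1, and in recovery against doxycycline 4 and 2. Called in all 22 alternatives were COL9A2 in recovery against control, and COL6A1, COL6A2 (ILMN_1783909), COL12A1 (ILMN_1733756) and COL18A1 in recovery against doxycycline; COL6A2 on ILMN_1809928 was called in all 21 that tested it. The call of COL6A2 in doxycycline against control was made in 12 of 22, that of COL1A2 (ILMN_1785272) in recovery against control in 13 of 21, and in recovery against doxycycline those of COL9A2 in 14 of 22, COL8A1 on ILMN_2402392 in 12 of 21 and COL8A1 on ILMN_1685433 in 9 of 22.

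The doxycycline against control count of 1 collagen probe was the least stable. Beside many counts stands the share of all tested probes called in the same fit, which was 1.41% with all arrays. Counts given without a share cannot be set against the calls over the whole array. The count was 3 with offset 50 (2.75%), 4 with median scaling (1.98%), 2 each for probes detected on all 9 arrays (2.12%), for detection p under 0.01 (2.17%), for genes by brightest probe (2.07% of genes) and with a trended robust prior (2.73%), and 14 with array weights (42.9%). It was 0 in limma with no background correction (0.926%, 13 at unadjusted p under 0.05), no filter (0.33%, 15), the authors' processed values (0.926%, 13) and only the 2 groups compared (0.454%, 11). Leaving out single arrays gave 0 to 12, with 12 without doxycycline replicate 1 (18.04%), 2 without doxycycline replicate 2 (1.22%), 1 without recovery replicate 3, and 0 without any other array (11 to 13 at unadjusted p under 0.05). Recovery against control, 2 with all arrays (15.1%), gave 1 by brightest probe (19.2% of genes), 10 with array weights (31.7%) and 7 with only the 2 groups (26.2%). Leaving out arrays gave 1 to 7, with 7 without doxycycline replicate 2 (25.96%), 5 without doxycycline replicate 1 (19.1%), and 1 without any control array or recovery replicate 2 or 3. Recovery against doxycycline, 8 with all arrays (12.7%), gave 16 with array weights (49.9%), 5 with only the 2 groups (7.64%), and 5 to 10 on leaving out arrays, with 5 without doxycycline replicate 3 or any recovery array. Partner counts were 4, 12 and 15 with all arrays, in the order doxycycline against control, recovery against control and recovery against doxycycline. With array weights they were 48, 26 and 45 (42.9%, 31.7% and 49.9% of all tested probes). With only the 2 groups they were 0 (33 at unadjusted p under 0.05 in limma), 20 and 9 (0.454%, 26.2% and 7.64%). The first was 2 with no background correction or the authors' values (0.926% each) and 1 with no filter (0.33%). Leaving out arrays gave 0 to 38 (38 without doxycycline replicate 1, 18.04%), 9 to 19 (19 without doxycycline replicate 2, 25.96%) and 7 to 29. The 29 was without doxycycline replicate 1 (10.1% higher and 10.2% lower) and the 7 without recovery replicate 2. The cause of these moves was not tested, and the 2-group fits hold fewer arrays. All arrays in a fit share an estimate of the spread, so doxycycline arrays also enter the standard errors of recovery against control. There, leaving out doxycycline replicate 2 kept COL12A1 (ILMN_1733756) at -0.52, COL18A1 at -0.71 and COL7A1 at 0.64. Their standard errors went from 0.25 to 0.13, from 0.26 to 0.15 and from 0.27 to 0.12. The array weight fit gave a convergence warning. The count of 28 detected probes was 28 on leaving out any array.

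Deviations of same-numbered arrays of different groups had correlations from -0.09 to 0.09 over all detected probes. Between control and recovery they were 0.09, 0.05 and 0.07, against -0.06 to 0.0006 for different numbers. Between doxycycline and recovery they were -0.05, -0.06 and -0.07, against 0.01 to 0.06 for different numbers. Correlations this weak cannot show whether same-numbered samples were handled together, and the main fit did not pair them. With the replicate block the collagen counts were 1, 2 and 8 in the same order, and the partner counts 4, 12 and 14. The share of all tested probes called in that fit is not given here.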
